A study of Mus musculus with 10 samples.

Results

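The 9 genes described here encode proteins of the mouse centromere and the chaperone that loads CENP-A, the histone that marks it. They are *Cenpa*, *Hjurp*, *Cenpn*, *Cenph*, *Cenpi*, *Cenpk*, *Cenpm*, *Cenpb* and *Cenpc1*, a list set by gene function and matched by symbol to 9 of the 45232 gene entries of the deposited table. Of these, 7 are counted as regulated with the cell cycle, and *Cenpb* and *Cenpc1* as constitutive. RNA was sequenced, after removal of ribosomal RNA, from immortalized mouse fibroblasts of the line NIH3T3 whose *Lin37* gene had been disrupted with a Cas9 nickase. Lin37 is a subunit of MuvB, the core of the DREAM complex that represses cell-cycle genes in resting cells. All groups had been kept for 60 h without serum and are labelled quiescent. The study compares cells that lack Lin37 with the same cells after it was put back.

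There were 4 groups, each a cell clone with an episome, a plasmid kept outside the chromosomes whose insert is switched on by doxycycline. The exon 4 clone and the exon 6 clone are named for the exon of *Lin37* at which they carry InDels. In the KO groups the episome expressed luciferase, and in the rescue groups it expressed wild-type Lin37. From the exon 4 clone came 2 libraries per group, both biological replicates. From the exon 6 clone came 3 libraries per group, of which library 3 was a technical replicate of library 2. A clone descends from a single cell, so a difference between the clones cannot be assigned to the InDels.

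The values are RPKM, reads scaled to the length of the gene and to a library total. Which reads make up that total is not stated, and whole reads could not be recovered from the values, so the depth of each library is unknown. Entries listed at 0 numbered 18739 and 10280 in the exon 4 KO libraries and 12382 and 7920 in the exon 4 rescue libraries. Those of the exon 6 clone numbered 18369, 19610 and 20959 in KO and 17348, 12700 and 22034 in rescue. The libraries thus differed in how many genes they registered, with the fewest zeros in exon 4 rescue library 2. All levels below were rescaled by a median-of-ratios factor per library, between 0.324 and 2.70.

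*Lin37* itself was measured first. *Lin37* in the exon 4 clone stood at 0.285 and 0.284 RPKM in the KO libraries and at 2.54 and 2.12 RPKM in the rescue libraries. *Lin37* in the exon 6 clone stood at 0.417, 0.279 and 0.268 RPKM in KO and at 4.92, 5.11 and 4.41 RPKM in rescue. Each rescue library was above each KO library, as the labels have it. Transcripts of the episome can add to these values, and InDels may leave a transcript in place. *Lin37* also shares 13.8% of its 31-base stretches with *Gm8802*.

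Genes of the silent olfactory receptor family show how much signal a library holds where none is due. The mean over 1026 of them was 0.00147 and 0.0673 RPKM in exon 4 KO and 0.0312 and 0.104 RPKM in exon 4 rescue. The exon 6 clone had 0.00331, 0.00321 and 0.00230 RPKM in KO and 0.00394, 0.0473 and 0.00196 RPKM in rescue. This level was highest in exon 4 rescue library 2 and differed widely within exon 4 KO and within exon 6 rescue.

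The label of the cells was checked against 10 fibroblast markers, all of which were above 0 in all 10 libraries and summed to 575 to 991 RPKM. *Thy1* fell lowest, at 0.531 to 1.83 RPKM in the exon 4 clone, against 7.41 to 9.49 RPKM in the exon 6 clone. The 14 markers of epithelial, endothelial, blood, muscle and nerve cells summed to 1.39 and 1.33 RPKM in exon 4 KO and to 1.57 and 1.56 RPKM in exon 4 rescue. Those of the exon 6 clone summed to 1.53, 1.64 and 1.30 RPKM in KO and to 0.884, 0.768 and 1.36 RPKM in rescue. Rescue was above KO in the exon 4 clone. With technical replicates averaged, both rescue replicates were below both KO replicates in the exon 6 clone, and the part of these markers in the results was not tested. The most abundant was *Cd68*, at 0.495 to 1.44 RPKM. The markers *Hba-a1* and *Myod1* were listed at 0 in 8 libraries and *Myog* in 7.

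A centromere is defined less by its DNA than by nucleosomes in which CENP-A replaces ordinary histone H3. HJURP places new CENP-A after mitosis at sites prepared by the Mis18 proteins, and a network of CENP subunits that stays there throughout the cycle, the CCAN, sits on these nucleosomes and carries the outer kinetochore. Resting cells make little of many of these proteins, whose genes are known targets of DREAM.

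DREAM is known to reach promoters through E2F elements and through CHR elements, which LIN54 of MuvB reads. Both were searched as plain letters, on both strands, in RefSeq promoter windows of GRCm38.p6 that run from 250 bases before to 50 after a start. The CHR letters were TTTGAA, to which TTTAAA was added, and with it TTCGAA, and the last 2 read the same on both strands. The E2F letters were TTCCCGC, besides which TTCGCGC, then also TTGCCGC, and lastly TTGGCGC were searched. All 9 members had a window, and *Cenpk* had 3, which made 11 windows. A match describes the letters only and is neither a proven site nor a cause.

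CHR letters stood in the windows of 5 members (*Cenpa*, *Hjurp*, *Cenpn*, *Cenpm* and *Cenpc1*), against 28.8% of all 32851 windows. By motif, TTTGAA stood in 17.9% of all windows, TTTAAA in 13.2% and TTCGAA in 1.56%. E2F letters stood in windows of 6 members (*Cenpn*, *Cenph*, *Cenpk*, *Cenpm*, *Cenpb* and *Cenpc1*), against 9.57% of all windows. In all 6 they were TTCCCGC, which 4.60% of windows held, while TTCGCGC (1.59%), TTGCCGC (1.81%) and TTGGCGC (2.45%) stood in none of the members' windows. Both families together stood in 3 members (*Cenpn*, *Cenpm* and *Cenpc1*), against 1.75% of all windows. The letters did not follow the division into regulated and constitutive members, which was assigned and not measured here. The constitutive *Cenpc1* held both families and the regulated *Cenpi* held neither, which says only that these letters are not in its window.

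The stretches around the matches are shown for the 8 members that had one, 30 bases each, so that the regulated and the constitutive genes can be read side by side. They are from RefSeq GRCm38.p6, written on the strand of the gene, and the capitals mark the matched letters or their reverse complement.
Cenpa (TTTAAA, chr5:30666857-30666886, plus strand): acaaagttgggaTTTAAAagatgcggtggg
Cenpa (TTTGAA, chr5:30666890-30666919, plus strand): ggcgggtgatttTTTGAActgctggcgacc
Hjurp (TTTGAA, chr1:88277543-88277572, minus strand): tgcgtaaatactTTTGAAagaccctattag
Cenpn (TTTGAA, chr8:116921719-116921748, plus strand): gccattggcggcTTCAAAagcacctcggcg
Cenpn (TTCCCGC, chr8:116921735-116921764, plus strand): aaagcacctcgGCGGGAAccgctgcagaga
Cenph (TTCCCGC, chr13:100775850-100775879, minus strand): acttccggaaaccaatttcgtgGCGGGAAg
Cenpk (TTCCCGC, chr13:104229359-104229388, plus strand): tgcgtgttacgTTCCCGCgtctccacctgc
Cenpm (TTCGAA, chr15:82244402-82244431, minus strand): tgggcgttccagTTCGAAcgtggctttccc
Cenpm (TTCCCGC, chr15:82244388-82244417, minus strand): cgaacgtggctTTCCCGCgtttcgaggagg
Cenpb (TTCCCGC, chr2:131180086-131180115, minus strand): cgtccccccgcTTCCCGCgagatcccgcgc
Cenpc1 (TTCCCGC, chr5:86065583-86065612, minus strand): caggcgaatggGCGGGAAcaagagccggag
Cenpc1 (TTTAAA, chr5:86065563-86065592, minus strand): agagccggagtcTTTAAAaaacgccaatta
*Cenpb* had a further TTCCCGC match farther from its start, as the plot of match positions shows.

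**Figure D1:**
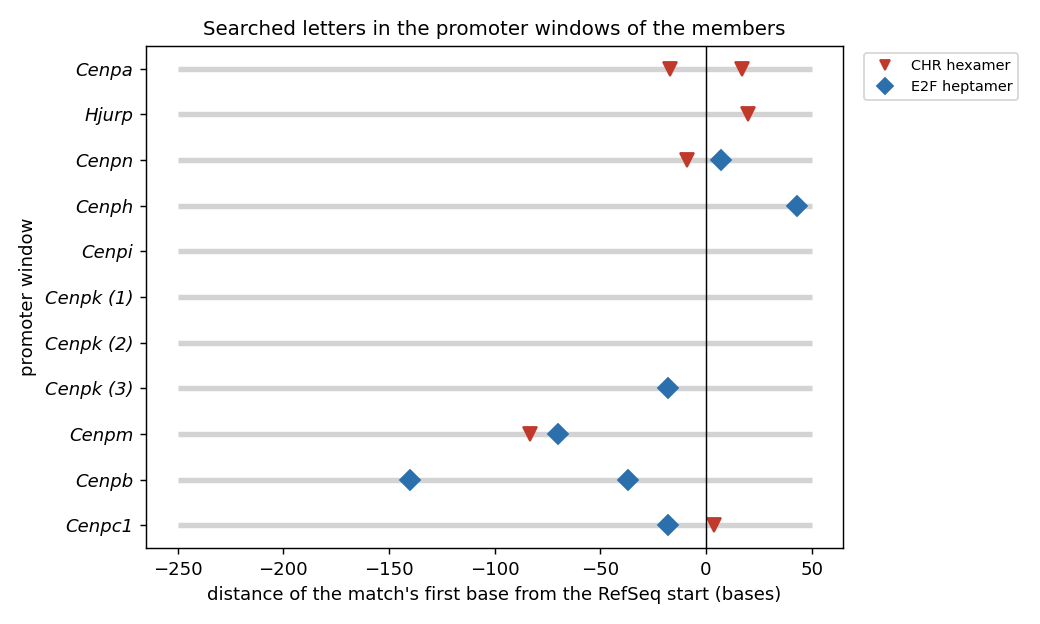
Positions of the searched letters in the 11 promoter windows of the 9 members, in bases from the RefSeq start (triangles, CHR letters; diamonds, E2F letters; grey, the window). CHR letters stand in windows of 5 members and E2F letters in windows of 6, and the window of *Cenpi* and 2 of the 3 windows of *Cenpk* hold neither.

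*Cenpa* encodes CENP-A, the histone variant of the centromere, and lies on the plus strand of chromosome 5 of GRCm38, from 30666777 to 30674830. *Cenpa* in the exon 4 clone stood at 0.614 and 0.392 RPKM in KO and at 0.0978 and 0.214 RPKM in rescue. *Cenpa* in the exon 6 clone stood at 0.688, 0.891 and 0.775 RPKM in KO and at 0.0670, 0.0725 and 0.0952 RPKM in rescue. All KO libraries were above all rescue libraries, and the closest were exon 4 KO library 2 and exon 4 rescue library 2. For this gene and those below, the share of all genes whose groups lie apart in this way is not given. The mean was 0.632 ± 0.184 RPKM (SD, n = 4) in KO, against 0.116 ± 0.0669 RPKM (SD, n = 4) in rescue, a ratio of 5.46. That ratio was 3.22 in the exon 4 clone against 10.1 in the exon 6 clone. Both are limited by the level of silent genes, 0.104 RPKM in exon 4 rescue library 2 and 0.0473 RPKM in exon 6 rescue library 2. Here and below, a ratio within a clone rests on 2 rescue replicates and moves widely where those differ. Over both clones the log2 change, KO minus rescue on log2(RPKM + 0.5), was 0.87 (95% interval 0.54 to 1.20, adjusted *p* 0.0191), with KO higher in 4 of 4 pairs. The exon 6 clone alone gave 1.13 (adjusted *p* 0.0228), and the exon 4 clone alone 0.61 (adjusted *p* 0.988). The added 0.5 makes log2 changes of such weakly expressed genes smaller than their ratios. Of the 8 biological replicates, 6 were each needed for the call of *Cenpa*. Its adjusted *p* was 0.0634 without exon 4 KO replicate 1, 0.0604 without exon 4 rescue replicate 1, and 0.104 and 0.0962 without exon 6 KO replicate 1 or 2. It was 0.0860 and 0.0906 without exon 6 rescue replicate 1 or 2, and 0.132 when genes of any level were tested. A bulk measurement cannot tell a larger share of cycling cells from more of this RNA in each cell, here and for every gene that follows.

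*Hjurp* encodes the chaperone that carries new CENP-A to the centromere and lies on the minus strand of chromosome 1, from 88262471 to 88277633. *Hjurp* in the exon 4 clone stood at 2.45 and 2.34 RPKM in KO and at 1.29 and 1.48 RPKM in rescue. *Hjurp* in the exon 6 clone stood at 3.07, 3.07 and 2.81 RPKM in KO and at 1.53, 1.55 and 1.55 RPKM in rescue. The groups did not overlap, and the rescue libraries of both clones lay close together. *Hjurp* averaged 2.70 ± 0.360 RPKM (SD, n = 4) in KO, against 1.46 ± 0.119 RPKM (SD, n = 4) in rescue, a ratio of 1.85. Its log2 change was 0.70 (95% interval 0.51 to 0.90, adjusted *p* 0.00322), and the differences of the 4 pairs were 0.72, 0.53, 0.82 and 0.75. In rescue cells the mean level of *Hjurp* was above that of each other regulated member. In the exon 6 clone alone the log2 change was 0.78 with an adjusted *p* of 0.0390, and with the replicate number as a block that *p* was 0.0749. In the exon 4 clone alone it was 0.62 (adjusted *p* 0.920).

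**Figure D2:**
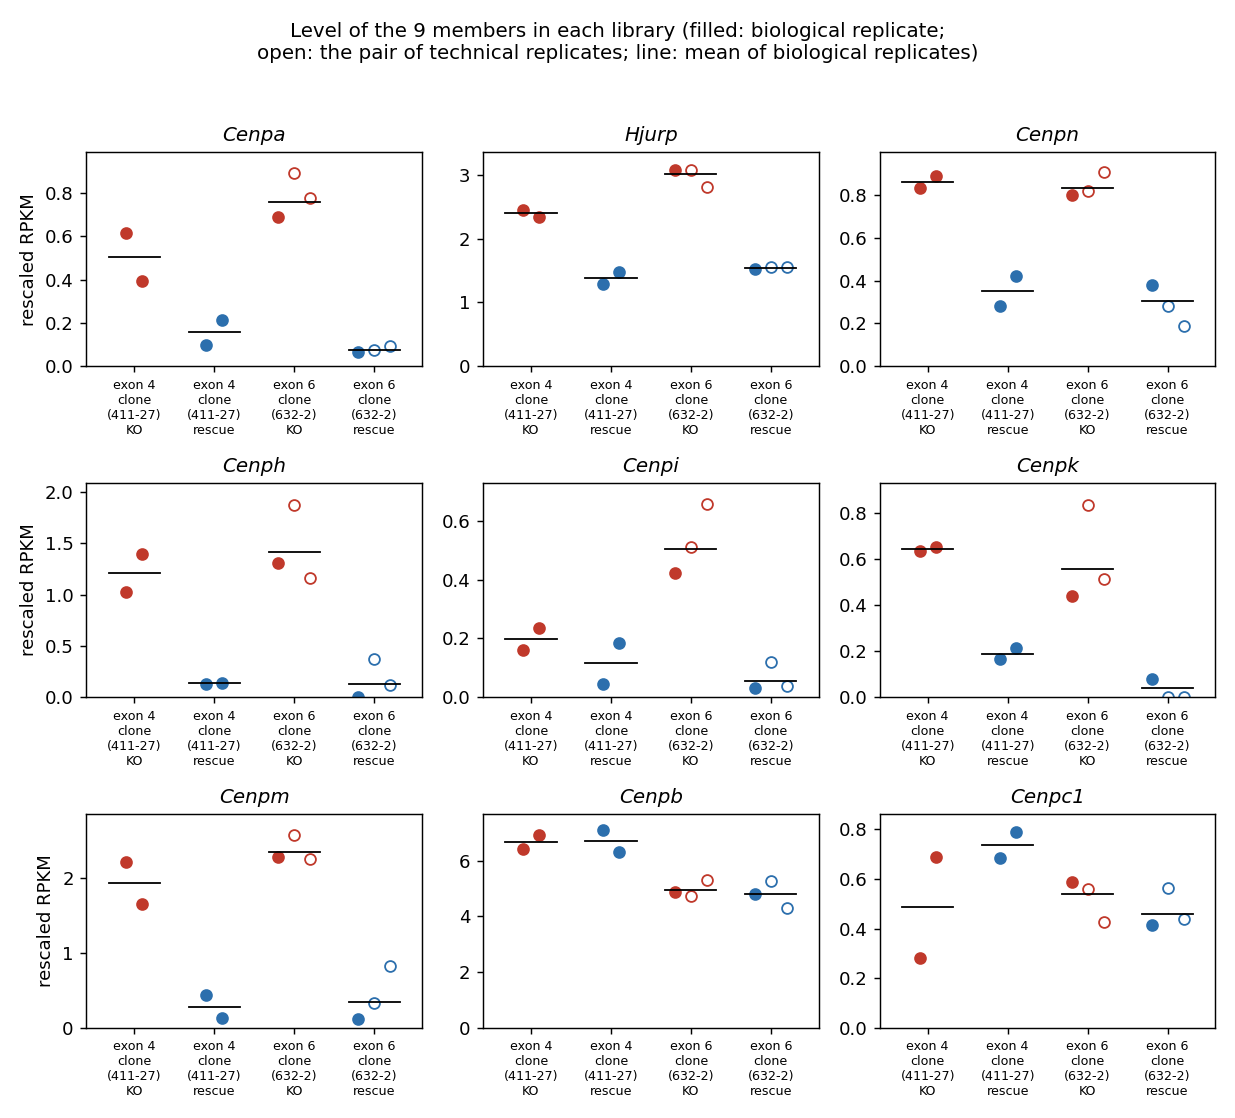
Rescaled RPKM of the 9 members in each of the 10 libraries, by clone and group (red, KO; blue, rescue; open circles, the pair of technical replicates; line, mean of the biological replicates). The KO libraries lie above the rescue libraries in *Cenpa*, *Hjurp*, *Cenpn*, *Cenph*, *Cenpk* and *Cenpm*, while those of *Cenpi*, *Cenpb* and *Cenpc1* overlap. How many of all genes lie apart in this way is not given.

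Among the CCAN subunits, CENP-N binds the CENP-A nucleosome directly. *Cenpn* lies on the plus strand of chromosome 8, from 116921730 to 116941507. *Cenpn* in the exon 4 clone stood at 0.832 and 0.889 RPKM in KO and at 0.279 and 0.421 RPKM in rescue. *Cenpn* in the exon 6 clone stood at 0.799, 0.817 and 0.907 RPKM in KO and at 0.379, 0.281 and 0.186 RPKM in rescue. No library of one group reached the other, and the KO libraries of both clones lay within a narrow band. The level was 0.845 ± 0.0391 RPKM (SD, n = 4) in KO, against 0.328 ± 0.0864 RPKM (SD, n = 4) in rescue, with ratios of 2.46 in the exon 4 clone against 2.71 in the exon 6 clone. Over both clones the log2 change was 0.71 (95% interval 0.47 to 0.94, adjusted *p* 0.00842), in the same direction in 4 of 4 pairs. The call of *Cenpn* was lost without exon 6 KO replicate 2 (adjusted *p* 0.0578) and with genes of any level tested (adjusted *p* 0.0526). In the single clones it was not called, with a log2 change of 0.73 in the exon 6 clone (adjusted *p* 0.108), against 0.68 in the exon 4 clone (adjusted *p* 0.942).

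CENP-H, CENP-I, CENP-K and CENP-M form a subcomplex of the CCAN that helps to join the inner centromere to the microtubule-binding layer. *Cenph* lies on the minus strand of chromosome 13, from 100759674 to 100775899. *Cenph* in the exon 4 clone stood at 1.03 and 1.40 RPKM in KO and at 0.130 and 0.138 RPKM in rescue. *Cenph* in the exon 6 clone stood at 1.31, 1.88 and 1.16 RPKM in KO, was listed at 0 in rescue library 1, and stood at 0.372 and 0.114 RPKM in rescue libraries 2 and 3. Every KO library was far above every rescue library. The means were 1.31 ± 0.210 RPKM (SD, n = 4) in KO, against 0.128 ± 0.0995 RPKM (SD, n = 4) in rescue. Their ratio was 10.3, with 9.08 in the exon 4 clone against 11.6 in the exon 6 clone. The exon 6 ratio rests on rescue replicates at 0 and 0.243 RPKM, and without replicate 2 it has no value. The log2 change of *Cenph* was 1.54 (95% interval 1.21 to 1.87, adjusted *p* 0.000898), in 4 of 4 pairs. Alone, the exon 6 clone gave 1.65 (adjusted *p* 0.0390), and the exon 4 clone gave 1.43 (adjusted *p* 0.262). The exon 6 call of *Cenph* was lost with 0.1 added in place of 0.5, and with genes of any level tested. The technical replicates of *Cenph* in the exon 6 clone differed by 0.52 in KO and 0.51 in rescue on the log2 scale, and its pair differences of 1.28 to 1.85 were larger than that.

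CENP-M is a small GTPase-like protein that holds this subcomplex together, and *Cenpm* lies on the minus strand of chromosome 15, from 82233779 to 82244748. *Cenpm* in the exon 4 clone stood at 2.21 and 1.64 RPKM in KO and at 0.429 and 0.124 RPKM in rescue. *Cenpm* in the exon 6 clone stood at 2.28, 2.57 and 2.25 RPKM in KO and at 0.120, 0.327 and 0.820 RPKM in rescue. The rescue libraries were uneven, with technical replicate 3 the highest, and all were below the KO libraries. *Cenpm* averaged 2.13 ± 0.337 RPKM (SD, n = 4) in KO, against 0.312 ± 0.227 RPKM (SD, n = 4) in rescue. The ratios were 6.96 in the exon 4 clone against 6.76 in the exon 6 clone. Their likeness rests on averages of rescue replicates at 0.429 and 0.124 RPKM in exon 4, and at 0.120 and 0.574 RPKM in exon 6. The log2 change of *Cenpm*, 1.73 (95% interval 1.29 to 2.18, adjusted *p* 0.00218), was the largest of the list, with KO higher in 4 of 4 pairs. That rank depends on the added 0.5, since with 0.1 added *Cenph* was first, at 2.75 against 2.60. Neither clone passed alone, with an adjusted *p* of 0.0610 in the exon 6 clone and of 0.313 in the exon 4 clone, where the log2 change was 1.66.

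*Cenpk*, for the partner of CENP-H in this subcomplex, lies on the plus strand of chromosome 13, from 104228611 to 104252392. *Cenpk* in the exon 4 clone stood at 0.634 and 0.652 RPKM in KO and at 0.162 and 0.211 RPKM in rescue. *Cenpk* in the exon 6 clone stood at 0.437, 0.834 and 0.509 RPKM in KO, at 0.0786 and 0.00161 RPKM in rescue libraries 1 and 2, and was listed at 0 in rescue library 3. The groups did not overlap, and the rescue libraries of the exon 6 clone were the lowest. The means were 0.599 ± 0.109 RPKM (SD, n = 4) in KO, against 0.113 ± 0.0928 RPKM (SD, n = 4) in rescue. Their ratio was 5.29, with 3.44 in the exon 4 clone against 14.0 in the exon 6 clone. The exon 6 ratio rests on rescue replicates at 0.0786 and 0.000804 RPKM, so it would change widely with either left out. *Cenpk* had a log2 change of 0.85 (95% interval 0.58 to 1.11, adjusted *p* 0.00631), with KO higher in 4 of 4 pairs. Alone, the exon 6 clone gave 0.96 (adjusted *p* 0.0887) and the exon 4 clone gave 0.74 (adjusted *p* 0.874).

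*Cenpi*, for a further subunit of this subcomplex, lies on the plus strand of chromosome X, from 134308084 to 134362639. *Cenpi* in the exon 4 clone stood at 0.159 and 0.237 RPKM in KO and at 0.0449 and 0.185 RPKM in rescue. *Cenpi* in the exon 6 clone stood at 0.423, 0.512 and 0.658 RPKM in KO and at 0.0299, 0.119 and 0.0359 RPKM in rescue. The groups overlapped in the exon 4 clone, where rescue library 2 was above KO library 1, and were apart in the exon 6 clone. *Cenpi* averaged 0.351 ± 0.191 RPKM (SD, n = 4) in KO, against 0.0843 ± 0.0699 RPKM (SD, n = 4) in rescue, with ratios of 1.72 in the exon 4 clone against 9.39 in the exon 6 clone. Its log2 change of 0.52 (95% interval 0.15 to 0.90) had an adjusted *p* of 0.295 and was not called, although KO was higher in 4 of 4 pairs. Alone, the exon 6 clone gave 0.86 (adjusted *p* 0.0762) and the exon 4 clone gave 0.19 (adjusted *p* 0.988). *Cenpi* was the 1 member whose change differed between clones at an unadjusted p under 0.05, with a difference of 0.67 (95% interval 0.07 to 1.26) and an adjusted *p* of 0.997. With the RPKM as deposited, *Cenpi* was called (log2 change 0.96, adjusted *p* 0.000609), under a scaling that moved the median of all genes as given below. In exon 4 rescue library 2 the silent gene level of 0.104 RPKM was of the order of the 0.185 RPKM of *Cenpi*. It was nearer still to the 0.138 RPKM of *Cenph* and the 0.124 RPKM of *Cenpm*, which limits the ratios of all 3. The same level limits those of *Cenpa* and *Cenpk*, at 0.214 and 0.211 RPKM in that library. With the silent gene level subtracted in each library, *Cenph* and *Cenpm* were still called, with log2 changes of 1.62 and 1.81. *Cenpa* and *Cenpk* were called as well, at 0.93 and 0.90, and *Cenpi* was not.

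*Cenpb*, 1 of the constitutive pair, encodes a protein that binds a sequence box in the satellite repeats of the centromere. It lies on the minus strand of chromosome 2, from 131175182 to 131180067. *Cenpb* in the exon 4 clone stood at 6.41 and 6.93 RPKM in KO and at 7.11 and 6.30 RPKM in rescue. *Cenpb* in the exon 6 clone stood at 4.86, 4.73 and 5.29 RPKM in KO and at 4.81, 5.25 and 4.30 RPKM in rescue. KO and rescue overlapped in both clones, while the clones differed, with all libraries of the exon 4 clone above all of the exon 6 clone. *Cenpb* was at 5.80 ± 1.03 RPKM (SD, n = 4) in KO, against 5.75 ± 1.15 RPKM (SD, n = 4) in rescue, a ratio of 1.01. Its log2 change was 0.02 (95% interval -0.18 to 0.21, adjusted *p* 0.971), with KO higher in 3 of 4 pairs, and turned to -0.01 without exon 4 rescue replicate 2. With the RPKM as deposited *Cenpb* was at 0.99 (adjusted *p* 0.104), 0.35 above the median of all genes there, so the interval holds only for the rescaled values.

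*Cenpc1* encodes CENP-C, which binds CENP-A nucleosomes and recruits the outer kinetochore, and lies on the minus strand of chromosome 5, from 86012024 to 86065583. *Cenpc1* in the exon 4 clone stood at 0.281 and 0.688 RPKM in KO and at 0.683 and 0.789 RPKM in rescue. *Cenpc1* in the exon 6 clone stood at 0.586, 0.558 and 0.426 RPKM in KO and at 0.413, 0.565 and 0.437 RPKM in rescue. The groups overlapped in both clones, and exon 4 KO library 1 was the lowest of all. *Cenpc1* averaged 0.512 ± 0.173 RPKM (SD, n = 4) in KO, against 0.597 ± 0.171 RPKM (SD, n = 4) in rescue, a ratio of 0.858. The log2 change was -0.12 (95% interval -0.48 to 0.24, adjusted *p* 0.884), and turned to 0.05 without exon 4 KO replicate 1 and to 0.43 with the RPKM as deposited, where the median of all genes was 0.64. In 11.8% of its 31-base stretches *Cenpc1* equals another gene, most of them the pseudogene *Gm13477* with 8.42%, and the values do not show how such reads were assigned.

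The contrast between the regulated and the constitutive members was read within each pair of KO and rescue replicates of the same clone and number. The labels do not say whether cultures with the same number were grown together. The median difference of the 7 regulated members was 0.78 and 0.59 in the exon 4 pairs and 0.82 and 1.19 in the exon 6 pairs, on the log2 scale. Over the same pairs *Cenpb* gave -0.14, 0.13, 0.01 and 0.06, and *Cenpc1* gave -0.60, -0.12, 0.25 and -0.01. The regulated median was thus above both constitutive members in each of the 4 pairs. It exceeded *Cenpb* by 0.83 ± 0.28 (SD, n = 4 pairs) and *Cenpc1* by 0.96 ± 0.39 (SD, n = 4 pairs). The median of all genes tested was -0.03 ± 0.03 over these pairs, close to *Cenpb* at 0.02 ± 0.11. No test is given for this contrast, since the division of the members was known when it was computed.

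**Figure D3:**
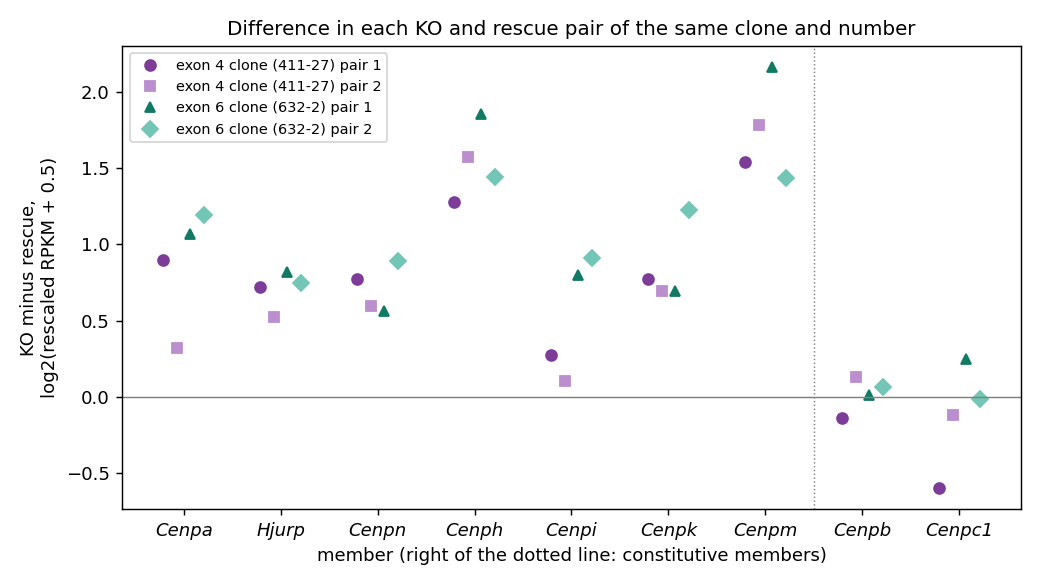
Difference of KO minus rescue on log2(RPKM + 0.5) for each member in each of the 4 pairs of the same clone and number (circles and squares, the exon 4 clone; triangles and diamonds, the exon 6 clone). All points of the 7 regulated members lie above 0, from 0.11 in *Cenpi* to 2.16 in *Cenpm*, while those of *Cenpb* and *Cenpc1* lie on both sides of 0.

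As a share of *Cenpb*, the regulated members can be followed library by library without the scaling of the library. Their summed level was 1.24 and 1.09 times that of *Cenpb* in exon 4 KO and 0.342 and 0.439 times in exon 4 rescue. For the exon 6 clone it was 1.85, 2.24 and 1.72 times in KO and 0.458, 0.519 and 0.651 times in rescue. In each KO library the 7 genes together outweighed *Cenpb*, and in no rescue library did they reach its level. The sums themselves were 7.92 and 7.56 RPKM in exon 4 KO, 2.43 and 2.77 RPKM in exon 4 rescue, 9.01, 10.6 and 9.07 RPKM in exon 6 KO, and 2.20, 2.72 and 2.80 RPKM in exon 6 rescue.

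In the order of mean levels, *Cenpb* came first in KO cells and in rescue cells. Below it in KO cells followed *Hjurp* (2.70 RPKM), *Cenpm* (2.13), *Cenph* (1.31), *Cenpn* (0.845), *Cenpa* (0.632), *Cenpk* (0.599), *Cenpc1* (0.512) and *Cenpi* (0.351). The replicate ranges of *Hjurp* and *Cenpm* overlapped, and from *Cenpn* downward each gene overlapped with the next. In rescue cells *Hjurp* (1.46 RPKM) was followed by *Cenpc1* (0.597), *Cenpn* (0.328), *Cenpm* (0.312), *Cenph* (0.128), *Cenpa* (0.116), *Cenpk* (0.113) and *Cenpi* (0.0843). From *Cenpc1* downward each range overlapped with the next, so only the places of *Cenpb* and *Hjurp* were set apart from their neighbours. By its mean, *Cenpc1* stood above *Cenph*, *Cenpm*, *Cenpn*, *Cenpa* and *Cenpk* in rescue cells and below them in KO cells.

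Replicates of 1 group differed most in *Cenpm*, by up to 0.79 on the log2 scale (exon 6 rescue), in *Cenpc1* by up to 0.61 (exon 4 KO) and in *Cenph* by up to 0.57 (exon 6 rescue). In *Hjurp* and *Cenpb* they differed least, by up to 0.14 and 0.16. For *Hjurp*, *Cenpn*, *Cenph*, *Cenpk* and *Cenpm* the smallest difference of a KO and rescue pair was larger than the largest difference within a group. For *Cenpa* both were near 0.32, and for *Cenpi* the smallest pair difference of 0.11 was below the 0.33 seen within a group. The same comparison over all genes is not given, so these differences only describe the members.

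Read against all genes over both clones, 6 of the 9 members were called higher in KO (adjusted *p* under 0.05, limma), where 271 of 16866 genes tested, or 1.61%, were. These were *Cenpa*, *Hjurp*, *Cenpn*, *Cenph*, *Cenpk* and *Cenpm*, and all 9 members passed the minimum mean of 0.1 RPKM. Called lower in KO by limma were 0 members, against 14 genes or 0.083%. At an unadjusted p under 0.05, 0 members were lower, against 628 genes or 3.72%. In every pair, 7 members were higher in KO, against 1511 genes or 8.96%. The median log2 change was 0.71 over the 9 members and 0.85 over the 7 regulated members, against -0.03 over all genes tested. The *p*-values cover the spread between replicates of these clones only.

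**Figure D4:**
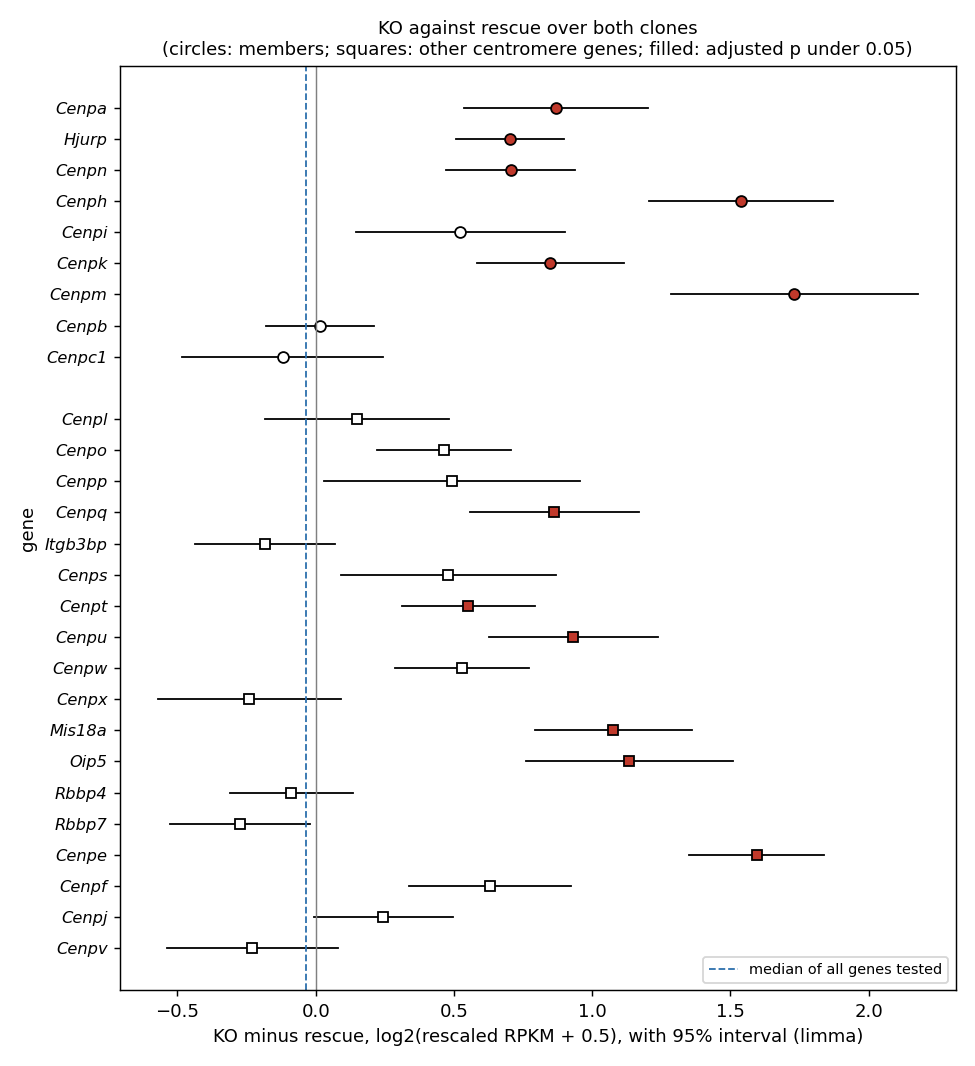
Log2 change, KO minus rescue over both clones, with its 95% interval for the 9 members (circles) and 18 other centromere genes (squares), filled where the adjusted *p* was under 0.05. Filled are 6 of the 9 members and 6 of the 18 other genes, and the dashed line marks the median of all genes tested at -0.03.

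In the exon 6 clone alone, 3 of the 9 members (*Cenpa*, *Hjurp* and *Cenph*) were called higher in KO, against 189 of 15301 genes or 1.24%. With the replicate number as a block, 2 remained, *Cenpa* and *Cenph*, where 142 of 15301 genes were called. With exon 6 KO replicate 1, KO replicate 2 or rescue replicate 1 left out, limma called 0 of the 9 members and 0 of all genes, and without rescue replicate 2 it called 2, *Cenph* and *Cenpm*, and 69 of 15158 genes. The median log2 change was 0.86 over the members and 0.96 over the regulated ones, against 0.00 over all genes.

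In the exon 4 clone alone, limma called 0 of the 9 members and 0 of 18751 genes, which is 0%. At an unadjusted p under 0.05, 6 members (all regulated ones but *Cenpi*) were higher, against 426 genes or 2.27%. The median log2 change was 0.62 over the members and 0.68 over the regulated ones, against -0.08 over all genes.

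That a call was made in 1 clone and not in the other does not show that the clones differ. The interaction of clone and genotype, tested by limma, was called in 0 members and in 0 of 16866 genes, which is 0%. At an unadjusted p under 0.05 it was reached by 1 member, *Cenpi*, against 685 genes or 4.06%. For *Cenpa* the change in the exon 6 clone exceeded that in the exon 4 clone by 0.52 (95% interval -0.05 to 1.09, adjusted *p* 0.997), an interval that holds both no difference and a large one.

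Scaling moved these values. With the RPKM as deposited, the median of all genes itself was 0.64 over both clones, and relative to it the regulated median was 0.74, *Cenpb* 0.35 and *Cenpc1* -0.20. In that setting 7 members were called over both clones, where 875 of 16349 genes or 5.35% were. In the exon 6 clone the setting called all 9 members, *Cenpb* and *Cenpc1* included, where 61.4% of all genes were called. In the exon 4 clone it put *Cenpi* at -0.19 relative to the median of all genes. With quantile normalization the regulated median was 1.10 relative to all genes, and *Cenpb* stood at 0.03 and *Cenpc1* at -0.12. With the silent gene level of each library subtracted, a setting chosen after the data were seen, the same 6 members were called over both clones, where 299 of 15763 genes or 1.90% were, and the same 3 in the exon 6 clone, where 205 of 15090 genes or 1.36% were.

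The remaining genes of the pathway were taken as a list of 18 by function, all of which were tested. Of these, 6 were called higher in KO over both clones, against 1.61% of all genes, and 0 lower by limma, against 0.083%. At an unadjusted p under 0.05 by limma, 1 (*Rbbp7*) was lower, against 3.72% of all genes. The median log2 change of the 18 was 0.49, between the -0.03 of all genes and the 0.71 of the members. Of the 18, 10 were higher in KO in every pair, against 8.96% of all genes. In the exon 6 clone alone, 3 were called (*Cenpq*, *Cenpe* and *Cenpf*), against 1.24% of all genes, and of these *Cenpq* (adjusted *p* 0.0523) and *Cenpf* (adjusted *p* 0.0743) were not called with the replicate block.

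The Mis18 proteins prepare the centromere for HJURP, and the genes *Mis18a* and *Oip5* were called, 2 of the 4 listed here with *Rbbp4* and *Rbbp7*, against 1.61% of all genes. *Mis18a* stood at 1.33 and 1.22 RPKM in exon 4 KO, 0.284 and 0.299 RPKM in exon 4 rescue, 0.562, 0.988 and 0.690 RPKM in exon 6 KO, and 0.0253, 0.247 and 0.130 RPKM in exon 6 rescue. *Oip5*, which encodes Mis18-beta, stood at 0.658 and 1.35 RPKM in exon 4 KO, 0.196 and 0.136 RPKM in exon 4 rescue, 0.738, 1.44 and 0.948 RPKM in exon 6 KO, and 0.144, 0.329 and 0.0257 RPKM in exon 6 rescue. Neither gene's groups overlapped. The log2 change was 1.08 for *Mis18a* (adjusted *p* 0.00254) and 1.13 for *Oip5* (adjusted *p* 0.00825), each with KO higher in 4 of 4 pairs, and *Oip5* was not called with genes of any level tested (adjusted *p* 0.0676). The histone chaperones *Rbbp4* and *Rbbp7*, which serve the Mis18 proteins and many other complexes, had log2 changes of -0.09 (adjusted *p* 0.853) and -0.27 (adjusted *p* 0.503). With the RPKM as deposited both were positive, at 0.73 and 0.61, near the 0.64 of all genes. *Mis18a* and *Oip5* were thus called together with *Cenpa* and *Hjurp*, and the shared chaperones did not pass the test in either direction.

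Of 10 further CCAN subunits, 3 were called higher in KO, *Cenpq*, *Cenpt* and *Cenpu*, against 1.61% of all genes, with a median log2 change of 0.49 over the 10, against -0.03 over all genes. *Cenpu* had a log2 change of 0.93 (adjusted *p* 0.00825) and was not called without exon 6 KO replicate 2 (adjusted *p* 0.0538) or with genes of any level tested (adjusted *p* 0.0652). *Cenpq* had 0.86 (adjusted *p* 0.0127) and was not called without any single replicate of the exon 6 clone (adjusted *p* 0.0619 to 0.0758) or with genes of any level tested (adjusted *p* 0.0861). *Cenpt*, at 0.55 (adjusted *p* 0.0391), lost its call with the replicate block (adjusted *p* 0.0629) and without any single replicate other than exon 4 KO replicate 1 (adjusted *p* 0.0652 to 0.186). It also lost it without the clone covariate (adjusted *p* 0.318), with genes of any level tested (adjusted *p* 0.134) and with a minimum mean of 1 RPKM (adjusted *p* 0.0511). The calls of *Cenpq* and *Cenpt* therefore rested on single replicates more than those of *Cenph* and *Cenpm*. *Cenpw* missed the threshold at 0.53 (adjusted *p* 0.0502), with 0.265 ± 0.0764 RPKM (SD, n = 4) in KO, against 0.0281 ± 0.00695 RPKM (SD, n = 4) in rescue and no overlap, and was called in 4 of 18 alternatives (adjusted *p* 0.00138 to 0.0369), among them the RPKM as deposited and technical replicates kept apart. It was not called with the replicate block (adjusted *p* 0.0737) or with any single replicate left out. *Cenpo* (0.46, adjusted *p* 0.0917), *Cenpp* (0.49, adjusted *p* 0.519), *Cenps* (0.48, adjusted *p* 0.401), *Cenpl* (0.15, adjusted *p* 0.826), *Itgb3bp* (-0.18, adjusted *p* 0.705) and *Cenpx* (-0.24, adjusted *p* 0.705) were not called. With the RPKM as deposited, *Cenpo* (0.99, adjusted *p* 0.0107), *Cenpp* (0.92, adjusted *p* 0.00568) and *Cenps* (1.01, adjusted *p* 0.000461) were called, and *Cenpo* also with technical replicates kept apart (adjusted *p* 0.0369). *Itgb3bp* and *Cenpx* were at 0.08 and 0.52 in that setting, both below its 0.64 of all genes.

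Genes named CENP that lie outside the CCAN gave 1 call of 4, against 1.61% of all genes, for *Cenpe*, which encodes a kinesin motor of the mitotic kinetochore. *Cenpe* stood at 1.37 and 1.71 RPKM in exon 4 KO, 0.281 and 0.197 RPKM in exon 4 rescue, 1.64, 1.82 and 1.58 RPKM in exon 6 KO, and 0.122, 0.179 and 0.192 RPKM in exon 6 rescue. All KO libraries were well above all rescue libraries, and the log2 change was 1.60 (95% interval 1.35 to 1.84, adjusted *p* 0.000206). *Cenpf*, for a large protein of the outer kinetochore, had 0.63 (adjusted *p* 0.0552) over both clones and 0.89 (adjusted *p* 0.0354) in the exon 6 clone alone, and *Cenpf* was called over both clones in 7 of 18 alternatives (adjusted *p* 0.000512 to 0.0489), the RPKM as deposited and technical replicates kept apart again among them. It was not called with the replicate block (adjusted *p* 0.0888) or without any single replicate of the exon 6 clone (adjusted *p* 0.194 to 0.252). *Cenpj*, a centriole gene, and *Cenpv* had 0.24 (adjusted *p* 0.580) and -0.23 (adjusted *p* 0.699), and *Cenpv* was at 0.38 with the RPKM as deposited, below the 0.64 of all genes.

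Markers of proliferation moved with the regulated members. Of 6, limma called 4 higher in KO (*Mki67*, *Top2a*, *Cdk1* and *Ccna2*), against 1.61% of all genes, all 6 were higher in every pair, against 8.96%, and their median log2 change was 1.30. Their summed level was 11.3 and 9.87 RPKM in exon 4 KO, 3.34 and 2.55 RPKM in exon 4 rescue, 10.5, 11.2 and 10.5 RPKM in exon 6 KO, and 1.34, 1.22 and 2.11 RPKM in exon 6 rescue. *Top2a* was the most abundant, at 5.67 ± 1.03 RPKM (SD, n = 4) in KO, against 1.09 ± 0.518 RPKM (SD, n = 4) in rescue. The call of *Mki67* (log2 change 1.13, adjusted *p* 0.00956) was lost without exon 6 KO replicate 1 (adjusted *p* 0.0550) or 2 (adjusted *p* 0.0567) and with genes of any level tested (adjusted *p* 0.0782). *Ccnb1* (0.39, adjusted *p* 0.157) and *Pcna* (0.44, adjusted *p* 0.176) were not called, except with the RPKM as deposited (0.66, adjusted *p* 0.0128, and 1.13, adjusted *p* 0.0197), a setting with a median of 0.64 over all genes. The part of cycling cells in the change of the centromere genes was not tested.

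The 7 reference genes *Actb*, *Gapdh*, *Tbp*, *Hprt*, *Ppia*, *Sdha* and *Rplp0* gave 0 calls by limma, with a median log2 change of -0.18. Of all genes, 1.61% were called higher and 0.083% lower. None of the 7 was higher in KO in every pair, against 8.96% of all genes. *Rplp0* was lower in all 4 pairs (-0.49, -0.25, -0.02 and -0.18). At an unadjusted p under 0.05 by limma, where 3.72% of all genes were lower in KO, stood 1 of these 7 genes, *Ppia*, also lower. They stood between -0.27 (*Ppia*) and 0.12 (*Gapdh*), and *Actb*, *Hprt*, *Ppia*, *Sdha* and *Rplp0* were at 0.81, 0.55, 0.62, 0.84 and 0.81 with the RPKM as deposited, a setting that moved the median of all genes to 0.64. Relative to that median *Hprt* and *Ppia* stayed negative, at -0.09 and -0.02.

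Whether the strand of a read was used in counting is not stated, so the genes next to or over a member were read beside it. *Hjurp* starts 28 bases from *Trpm8* on the other strand, which was at or under 0.0370 RPKM in all libraries and was not tested. *Cenpn* starts 275 bases from *Cmc2* on the other strand. *Cmc2*, for a factor of cytochrome c oxidase assembly, stood at 1.20 and 1.48 RPKM in exon 4 KO, 0.604 and 0.578 RPKM in exon 4 rescue, 1.49, 1.08 and 1.74 RPKM in exon 6 KO, and 0.568, 0.884 and 0.936 RPKM in exon 6 rescue. It did not overlap between groups either and rose with its neighbour, by 0.71 (adjusted *p* 0.0136), in 4 of 4 pairs. The call of *Cmc2* was lost without exon 6 KO replicate 1 (adjusted *p* 0.0758), KO replicate 2 (adjusted *p* 0.0624) or rescue replicate 1 (adjusted *p* 0.0515), and with genes of any level tested (adjusted *p* 0.0705).

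*Cenpk* shares 233 bases with *Ppwd1* on the other strand, which had a log2 change of 0.28 (adjusted *p* 0.474). *Cenph* contains the pseudogene *Gm16335*, of 309 bases on the other strand, with a log2 change of -0.01 (adjusted *p* 0.989). All 4886 bases of *Cenpb* lie within *Spef1* on the same strand, and *Spef1* stood at 0.0306 to 0.328 RPKM with a log2 change of 0.09 (adjusted *p* 0.903). Reads of such shared bases cannot be told apart from these values. Of the 31-base stretches of the members, 3.65% in *Cenph*, 2.69% in *Cenpk*, 2.61% in *Cenpa*, 1.38% in *Cenpn*, 1.27% in *Hjurp*, 1.17% in *Cenpi*, 0.185% in *Cenpb* and 0% in *Cenpm* also stood in another gene.

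The pattern of *Cenpa* over the 8 biological replicates was compared with that of 10397 genes, as a description with no test. Outside the lists above, the highest Pearson correlations on log2(RPKM + 0.5) were those of *Chtf18* (0.977), *Asf1b* (0.977), *Sae1* (0.976), *Spc24* (0.971) and *Nek2* (0.970). These replicates fall into a KO and a rescue group, so that a gene that parts the groups in this way correlates with *Cenpa* for that reason alone. *Sae1* had by far the smallest ratio, with 5.10 ± 0.379 RPKM (SD, n = 4) in KO, against 3.44 ± 0.231 RPKM (SD, n = 4) in rescue. *Spc24* had 0.987 ± 0.246 RPKM (SD, n = 4) in KO against 0.0589 ± 0.0436 RPKM (SD, n = 4) in rescue. *Nek2* had 0.973 ± 0.261 RPKM (SD, n = 4) in KO against 0.0630 ± 0.0225 RPKM (SD, n = 4) in rescue.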

How the data were processed

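RNA of 10 libraries from serum-starved NIH3T3 cells was sequenced by the authors, who clipped adapters with cutadapt, mapped reads to mm10 and counted them per gene. The deposited values are RPKM, 1 column per library, and the labels also name Picard 1.89. The library total behind them is not stated. For low values of single-exon genes, many steps were tried per library and the best was kept. Of these values, 35.2% to 44.4% were, within 0.05, multiples of that step. Chance gives 10% for a single fixed step, which is not the rate for the best of many. Whole reads were not recovered, and no counting error is given. Of 45232 entries, 44585 were named from GENCODE M21.

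Python 3.11.15 (pandas 2.3.3, numpy 2.4.6, matplotlib 3.10.9) and limma 3.58.1 under R 4.3.3 served for all computations. Each library was scaled by a median-of-ratios factor from 8523 genes that averaged 1 RPKM or more and had no zero, and technical replicates were averaged, which left 4 KO and 4 rescue replicates. For each comparison, limma (lmFit, eBayes with trend, two-sided) was run on log2(RPKM + 0.5) of genes averaging 0.1 RPKM or more in its replicates. Benjamini-Hochberg adjustment was over all genes tested, with a threshold of 0.05. Clone was a covariate in the fit over both clones, and the fits of single clones had none. The interaction fit held clone, genotype and their interaction. The procedure was tested on simulated data.

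The pairing of KO with rescue replicates comes from the sample numbers of the labels, which do not say what a number shares. Over 7550 genes, replicates with the same number deviated together from their groups (correlation 0.477 for the exon 4 and 0.360 for the exon 6 clone). With 2 replicates per group this is only 1 correlation per clone. The numbers were treated as pairs in the pair differences and in the replicate block. The main fits did not use the pairing, so their *p*-values ignore it. The 19 alternatives were another pseudocount (0.1 or 1), a minimum level of 1 RPKM or none, no rescaling or quantile normalization, technical replicates kept apart, no clone covariate, a replicate block, no trend, each replicate left out, and the silent gene level subtracted, which was chosen after seeing the data.

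The members and lists were chosen with earlier results of these data known. Named genes were the 9 members, *Lin37*, 18 other centromere genes, 6 proliferation markers, 7 reference genes, genes that overlap a member or start within 1 kb of it on the other strand, and the 5 genes most correlated with *Cenpa* among those averaging 0.5 RPKM or more. Of the genes listed beforehand, 2 are not reported here. The reads themselves were not analysed.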

Additional observations from a re-analysis of the deposited data

Results flagged for a closer look

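In 102 groups of 4 biological replicates, 7 had a replicate that stood apart. Its gap to the nearest of the others exceeded Dixon's 95% critical value as a share of the group's range. Chance gives about 1 in 20, a rate that ignores the clone, although each group pooled 2 replicates from each clone. *Cenpk* was at 0.437 RPKM in exon 6 KO replicate 1, below the 0.634 to 0.672 RPKM of the other KO replicates. *Cenpp* was at 0.846 RPKM in exon 4 KO replicate 2, above the other 0.333 to 0.418 RPKM. *Lin37* was at 0.417 RPKM in exon 6 KO replicate 1, above the other 0.274 to 0.285 RPKM. *Mki67* was at 0.308 RPKM in exon 4 rescue replicate 1, above the other 0.111 to 0.116 RPKM. *Top2a* was at 7.21 RPKM in exon 4 KO replicate 1, above the other 5.02 to 5.33 RPKM. *Cmc2* was at 0.910 RPKM in exon 6 rescue replicate 2, above the other 0.568 to 0.604 RPKM. *Chtf18* was at 0.620 RPKM in exon 4 KO replicate 2, below the other 1.25 to 1.27 RPKM.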

How the results depend on the processing

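Of 52 recomputed counts whose reported count was above 0, 40 stayed within 1.5 times it, and of 916 log2 changes of named genes 829 kept their direction and side of the threshold. The 6 members called over both clones became 2 of 3 tested with a minimum mean of 1 RPKM, which removed the other members. Of all genes, 93 of 7550 were called higher in that setting. With a replicate left out the members ranged from 4 to 6, and all genes called higher from 174 to 265. The 3 members called in the exon 6 clone became 0 with no minimum level, where 0 of 36276 genes were called higher. With a minimum of 1 RPKM they became 1, against 67 of 7496 genes. With the RPKM as deposited they became 9, against 10040 of 16361 genes. With technical replicates kept apart they became 7, against 266 of 15384 genes. With a replicate of this clone left out, the lone replicate of a group is assumed to vary like the others. The 0 members called in the exon 4 clone and for the interaction stayed at 0 in each alternative run, which shows no stability, since at most 1 and 7 of all genes were called there in any of them. The 6 other centromere genes became 2 with no minimum level, where 171 of 40885 genes were called higher. With a minimum of 1 RPKM they became 0 of 4 tested, against 93 of 7550 genes. With the RPKM as deposited they became 11, against 875 of 16349 genes. With a replicate left out they ranged from 3 to 6, against the same 174 to 265 genes. With the RPKM as deposited, 875 genes were called higher and 13 lower, against 271 and 14. That setting tested 16349 genes, against 16866, and moved the median of all genes to 0.64. The cause of the larger count was not tested.

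With the replicate block, 6 members were called higher over both clones, against 276 of 16866 genes. In the exon 6 clone alone 2 were, against 142 of 15301 genes, and in the exon 4 clone 0, against 0 of 18751 genes. The interaction was called in 0 members and in 0 of 16866 genes. Over both clones the block ended the call of *Cenpt* (adjusted *p* 0.0629), in the exon 6 clone those of *Hjurp*, *Cenpq* and *Cenpf*, and it changed no other call of a member or other centromere gene.

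*Hjurp*, *Cenph*, *Cenpk* and *Cenpm* were called over both clones in each alternative in which they were tested. The sign turned in 23 of the values of uncalled genes, 12 of them with the RPKM as deposited, where the median of all genes was 0.64 and 8 of the 12 lay below it. In that setting, *Cenpc1* was at 0.43, *Itgb3bp* at 0.085, *Cenpx* at 0.52, *Rbbp4* at 0.73, *Rbbp7* at 0.61, *Cenpv* at 0.38, *Actb* at 0.81, *Hprt* at 0.55, *Ppia* at 0.62, *Sdha* at 0.84, *Rplp0* at 0.81 and *Gm16335* at 0.53. With quantile normalization, *Actb* was at 0.089 and *Gm16335* at 0.0036. *Gm16335* was at 0.014 with a pseudocount of 0.1, 0.031 with technical replicates kept apart and 0.021 with the silent gene level subtracted. With each replicate left out in turn, *Cenpb* ranged from -0.011 to 0.054, *Cenpc1* from -0.19 to 0.049, *Tbp* from -0.0072 to 0.11, *Sdha* from -0.20 to 0.0031 and *Gm16335* from -0.075 to 0.061, with 0.051 without exon 4 rescue replicate 1. Unknown depth limits the genes under 1 RPKM most, which are 6 of the 9 members by their mean.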
